A study of Homo sapiens with 6 samples.

Results

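The genes described are 9 keratins and vimentin, 10 of the 60664 genes in the deposited table, taken by gene symbol as a fixed list of intermediate filament genes and measured in all 6 libraries. The tested cells were SKOV3, an established human ovarian carcinoma line, in which a short hairpin RNA against JUP was used to knock that gene down (shJUP, 3 libraries). The comparison cells were SKOV3 with a control hairpin (shNC, 3 libraries), whose genotype the labels give as WT. Both groups therefore carry a hairpin, and effects of the shJUP hairpin other than lower JUP cannot be told apart from those of JUP. The sources used here do not state the sequence or number of the hairpins, the vector or the time after its introduction. The labels call the replicates independent and biological, and the number in each label (1, 2 or 3) is shared between the groups without a statement of what it stands for.

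Intermediate filaments are rope-like polymers that give animal cells mechanical strength. Keratins are obligate heteropolymers: an acidic type I chain pairs with a basic type II chain, and simple epithelia are built mainly on the pair of KRT8 and KRT18. Vimentin, a type III protein, polymerises with itself and is the filament of mesenchymal cells, and many carcinoma lines make both kinds. Plakoglobin, the JUP product, sits in the desmosomal plaque with desmoplakin, the plakin that ties keratin filaments to the junction. The comparison asks whether RNA of the filament genes differs between cells with the shJUP hairpin and control cells.

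The list holds 4 type II keratins (KRT8, KRT7, KRT80, KRT81), 5 type I keratins (KRT18, KRT19, KRT10, KRT15, KRT17) and 1 type III gene (VIM). In GENCODE release 29 (GRCh38) the 4 type II genes lie on chromosome 12, as does KRT18 (chr12:52948964-52952901, plus strand), and the transcript of KRT8 used here spans chr12:52897194-52906618 on the minus strand. The other 4 type I genes lie on chromosome 17, with KRT19 at chr17:41523617-41528308 and KRT17 at chr17:41619442-41624575, both on the minus strand. VIM lies on chromosome 10 (chr10:17229278-17237593, plus strand). Over the whole coding sequence, pairs of type II keratins were 61.7% to 73.1% identical and pairs of type I keratins 59.1% to 74.6%. Identity was 54.1% to 60.7% between the types and 54.8% to 60.6% between VIM and the keratins.

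Library totals ran from 17456121 to 19279514 estimated counts, and levels are given as CPM, each count scaled to its TMM-adjusted library total. JUP was at 52.7 ± 36 CPM in shJUP and 113 ± 17 CPM in shNC (mean ± SD, n = 3 each), and shJUP 2, at 93.6 CPM, lay close to the lowest control at 101 CPM. Its log2 fold change was -1.10 (SE 0.44), which edgeR (adjusted p = 0.47) and DESeq2 (adjusted p = 0.18) did not call, although the groups did not overlap. It was -0.75 without shJUP 3 and -1.80 without shJUP 2, and DESeq2 called JUP lower in the blocked fit (adjusted p = 0.047) and with both number-2 libraries left out (log2 -1.66, adjusted p = 2.5e-10). The label of the line was checked on its markers. PAX8, a Müllerian lineage factor, reached 393 CPM, whereas MUC16 stayed at or below 0.637 CPM. ERBB2, which SKOV3 is known to carry amplified, was at 2320, 4422 and 3271 CPM in the shJUP libraries 1 to 3, against 4393, 6907 and 4224 CPM in shNC 1 to 3. The ERBB2 ranges overlapped (log2 -0.63, SE 0.28, edgeR adjusted p = 0.51). The blocked DESeq2 fit called ERBB2 lower (adjusted p = 0.00022), as it did 2.81% of all genes. Of 14 markers of simple epithelium 10 reached 1 CPM in some library, with EPCAM at most at 4.62 CPM and CDH1 at most at 2.12 CPM, and their sum was 282 to 505 CPM in shJUP and 246 to 306 CPM in shNC. Most of that sum was CD24, at 448, 242 and 230 CPM in the shJUP libraries 1 to 3, against 203, 204 and 254 CPM in shNC 1 to 3, and the next was OCLN at 42.6 to 52.9 and 33.8 to 43.9 CPM. CLDN4, with an unadjusted edgeR p of 0.02, was at 2.26 ± 1.3 CPM in shJUP and 0.683 ± 0.31 CPM in shNC (edgeR adjusted p = 0.44), with overlap. By log2 fold change 6 of the 9 tested markers of simple epithelium lay above 0 and 3 below. MUC1 was among the lower ones, at 2.84 ± 0.96 CPM in shJUP and 4.94 ± 2.4 CPM in shNC (log2 -0.80, SE 0.41), with overlap. Of 10 markers of the mesenchymal state 9 reached 1 CPM, with a sum of 2056 to 5551 CPM in shJUP and 3203 to 8119 CPM in shNC. The most abundant of them were FN1, at 650 to 3952 and 861 to 5835 CPM, and S100A4, at 251 to 592 and 594 to 668 CPM in shJUP and shNC. Within that list TGFBI was at 325 ± 53 and 635 ± 87 CPM in shJUP and shNC and LOX at 119 ± 64 and 250 ± 16 CPM. With S100A4 these were the 3 of 9 tested markers lower without overlap, where 8.65% of all genes were. Higher without overlap were 0, where 8.39% of all genes were. DESeq2 called TGFBI lower (adjusted p = 3.9e-05), as it did 0.679% of all genes, and edgeR did not (adjusted p = 0.33). By log2 fold change 3 of the 9 tested mesenchymal markers lay above 0 and 6 below. None of 6 leukocyte markers reached 1 CPM. The sums were 16.8 to 43.5 CPM in shJUP and 10.3 to 18.4 CPM in shNC for 7 mesothelial markers, of which 4 reached 1 CPM and ITLN1 was at 0. They were 11.6 to 261 and 41.9 to 474 CPM for 7 fibroblast markers, of which 5 reached 1 CPM, and 8.93 to 11.8 and 6.69 to 11.6 CPM for 5 endothelial markers, of which 4 did. LRRN4 was most of the mesothelial sum, at 12.1 to 36.7 and 6.85 to 15.3 CPM in shJUP and shNC. COL1A1 was most of the fibroblast sum, at 8.76 to 253 and 38.3 to 401 CPM, while FAP stayed at or below 0.584 CPM. By log2 fold change the 4 tested mesothelial markers lay above 0 and the 5 tested fibroblast markers below. All of these overlapped between the groups, and edgeR called 0. KDR, most of the endothelial sum, was at 8.59 to 10.8 CPM in shJUP and 5.06 to 7.7 CPM in shNC, without overlap (edgeR adjusted p = 0.45). CDH5, the other endothelial marker tested, was at 0.767 ± 0.73 CPM in shJUP and 1.45 ± 0.2 CPM in shNC, with overlap (log2 -0.91, SE 0.63). Mesothelium makes the simple keratins as well, and the part of these markers in the keratin values was not tested. In such bulk RNA, fewer cells of a type and less RNA per cell cannot be told apart.

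VIM was by far the most abundant of the 10 genes, and KRT8 the most abundant keratin. VIM ranked 11th of 15867 tested genes by mean CPM and took 0.287% to 0.372% of the counts of a library, KRT8 ranked 164th, and KRT15 was the scarcest at rank 11599. Levels of different genes were compared per kilobase of the principal transcript in GENCODE release 29. On that scale VIM averaged 1789 CPM per kb over the 6 libraries, 5.49 times KRT8 (326 CPM per kb), and KRT8 in turn 2.25 times KRT18 (145 CPM per kb). VIM, KRT8 and KRT18 kept this order in every library, without overlap between VIM and KRT8 or between KRT8 and KRT18. KRT19 (110 CPM per kb), KRT7 (77.6) and KRT80 (53.9) followed, and the ranges of KRT18, KRT19, KRT7 and KRT80 overlapped from each to the next. KRT10 (13.5 CPM per kb), KRT17 (9.48) and KRT81 (6.52) formed a lower tier that overlapped within itself and lay below every value of KRT80. KRT15 came last at 0.854 CPM per kb, or 1.87 with its shorter principal transcript, still the lowest mean of the 10.

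**Figure D1:**
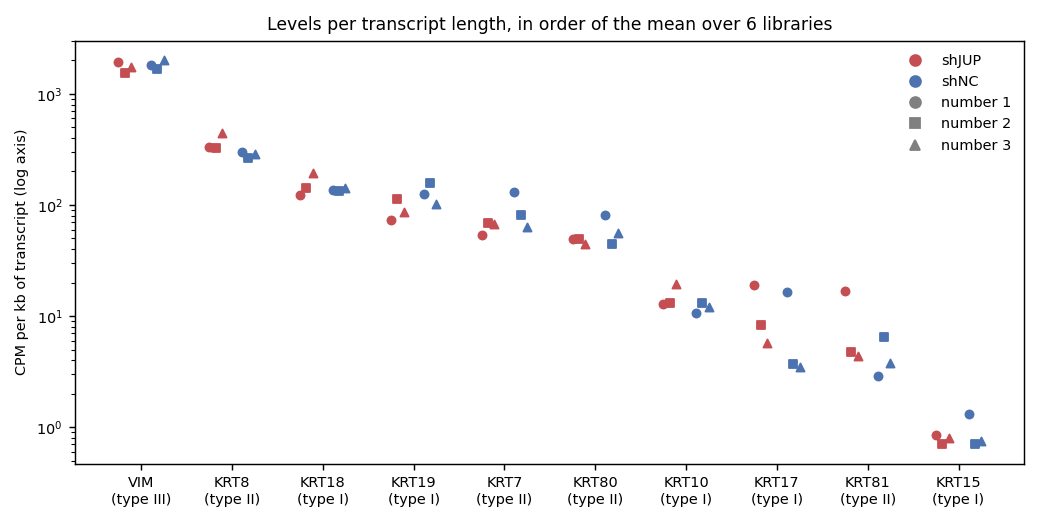
Level of each of the 10 genes in each library, in CPM per kb of the principal transcript on a log axis, with genes in order of their mean over 6 libraries, shJUP libraries (red) left of shNC libraries (blue) and the symbol giving the library number. VIM lies near 1789, KRT8 near 326, and KRT15 near 0.854 CPM per kb.

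In the comparison of shJUP with shNC, no filament gene passed the main test, edgeR's quasi-likelihood test with Benjamini-Hochberg adjustment over all 15867 tested genes. All 10 passed the filter on low counts. The test called 0 of the 10, where 0.0% of all genes were called in either direction, and 2 of the 10 (KRT8 and KRT19) had an unadjusted edgeR p under 0.05, where 10% of all genes did. DESeq2 called 0 of the 10 (1.46% of all genes, 0.782% higher and 0.679% lower). By limma-voom 0 of the 10 and 0 of all genes were called. Every DESeq2 share of all genes given here is taken over the genes to which DESeq2 gave an adjusted p. These were 13691 without a block, 13713 with the block and 13746 without both number-2 libraries. Blocked on library number, edgeR called 0 of the 10 and 0.0063% of all genes (1 gene, lower), and 3 of the 10 (KRT8, KRT19 and KRT17) had an unadjusted p under 0.05, where 19.2% of all genes did. DESeq2 with that block called 1 of the 10, KRT19, and 5.05% of all genes. Without both number-2 libraries edgeR called 0 of the 10 and 0.308% of all genes, and DESeq2 called 1 of the 10, again KRT19, and 4.9% of all genes. Fold changes are given as log2 of shJUP over shNC with the standard error (SE) of the edgeR fit. By that measure 5 genes lay above 0 (KRT8, KRT81, KRT18, KRT10, KRT17) and 5 below (KRT7, KRT80, KRT19, KRT15, VIM), with a median of 0.04, beside -0.01 over all tested genes. None of the 10 reached an absolute log2 fold change of 1, which 3.16% of all genes did.

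The groups did not overlap for 1 of the 10 genes, KRT8, which was higher in shJUP, where 8.39% of all genes were higher without overlap. No member was lower without overlap, against 8.65% of all genes. Within each library number, shJUP was higher in all 3 numbers for KRT8, KRT10 and KRT17 (21.3% of all genes) and lower in all 3 for KRT19 (22.5% of all genes), so 4 of the 10 had the same direction in all 3 numbers, beside 43.8% of all genes.

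**Figure D2:**
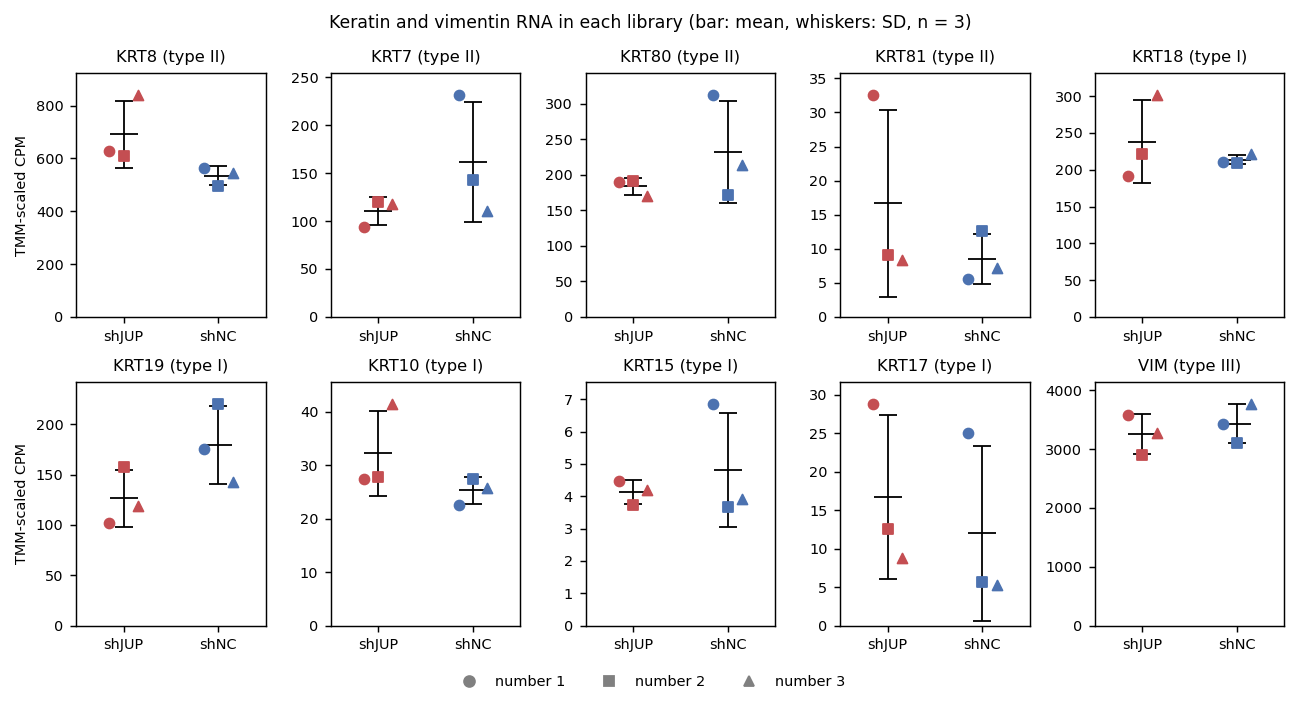
TMM-scaled CPM of each of the 10 genes (linear axes from 0), with shJUP libraries left and shNC libraries right, the library number as the symbol, the mean as a bar and the SD as whiskers (n = 3 per group). KRT8 is the gene whose groups do not overlap, at 611 to 839 CPM in shJUP and 494 to 563 CPM in shNC.

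KRT8, the type II chain of the simple epithelial pair, stood at 627, 611 and 839 CPM in the shJUP libraries 1, 2 and 3, against 563, 494 and 545 CPM in shNC 1, 2 and 3. Each shJUP library lay above each control, and shJUP 3 stood apart from the other two. The means were 692 ± 130 CPM in shJUP and 534 ± 36 CPM in shNC (mean ± SD, n = 3 each), a log2 fold change of 0.37 (SE 0.15) with an edgeR adjusted p of 0.47. An exact permutation test on log2 CPM gave a two-sided p of 0.1, the smallest that 3 against 3 libraries allow. Without shJUP 3 the log2 fold change was 0.21. With the library number as a block DESeq2 gave KRT8 an adjusted p of 0.078.

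KRT18, the type I partner of KRT8, stood at 191, 222 and 301 CPM in the shJUP libraries 1 to 3, against 211, 209 and 221 CPM in shNC 1 to 3. The shJUP libraries lay on both sides of the tightly grouped controls, and the highest value was again that of shJUP 3. Its means of 238 ± 56 and 214 ± 6.2 CPM (mean ± SD, n = 3 each) gave a log2 fold change of 0.16 (SE 0.17, edgeR adjusted p = 0.77), which turned to -0.05 without shJUP 3. Per kilobase, the ratio of KRT8 to KRT18 was 2.72, 2.28 and 2.32 in shJUP 1 to 3 and 2.21, 1.96 and 2.05 in shNC 1 to 3. Every shJUP library had a higher ratio than any control. KRT8 by itself did not overlap between the groups, so the ratio is not a separate result about the pair. The ratio of KRT8 to KRT7 did not overlap either, at 4.73 to 6.65 in shJUP and 2.27 to 4.61 in shNC, while that of KRT18 to KRT19 did. These ratios are given without a test since the genes were chosen with earlier results known.

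KRT19, the smallest keratin, which lacks most of the tail domain, stood at 102, 158 and 119 CPM in the shJUP libraries 1 to 3, against 175, 220 and 143 CPM in shNC 1 to 3. The groups overlapped because shJUP 2 exceeded shNC 3, but the shJUP library was lower than the control of the same number each time. The ratios were 0.582 (95% counting interval 0.549 to 0.617), 0.717 (0.684 to 0.752) and 0.837 (0.79 to 0.886) for numbers 1, 2 and 3. The means were 126 ± 29 CPM in shJUP and 179 ± 39 CPM in shNC (mean ± SD, n = 3 each), with a log2 fold change of -0.50 (SE 0.21) and an edgeR adjusted p of 0.49. The library number entered as a block gave -0.51 (SE 0.12, adjusted p = 0.14) in edgeR and an adjusted p of 0.015 in DESeq2, which then called 2.81% of all genes lower. DESeq2 without both number-2 libraries also called KRT19 lower (log2 -0.51, adjusted p = 0.040), as it did 2.62% of all genes. KRT19 was the only one of the 10 genes called in any of the 18 alternatives run, and it was called in these 2.

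**Figure D3:**
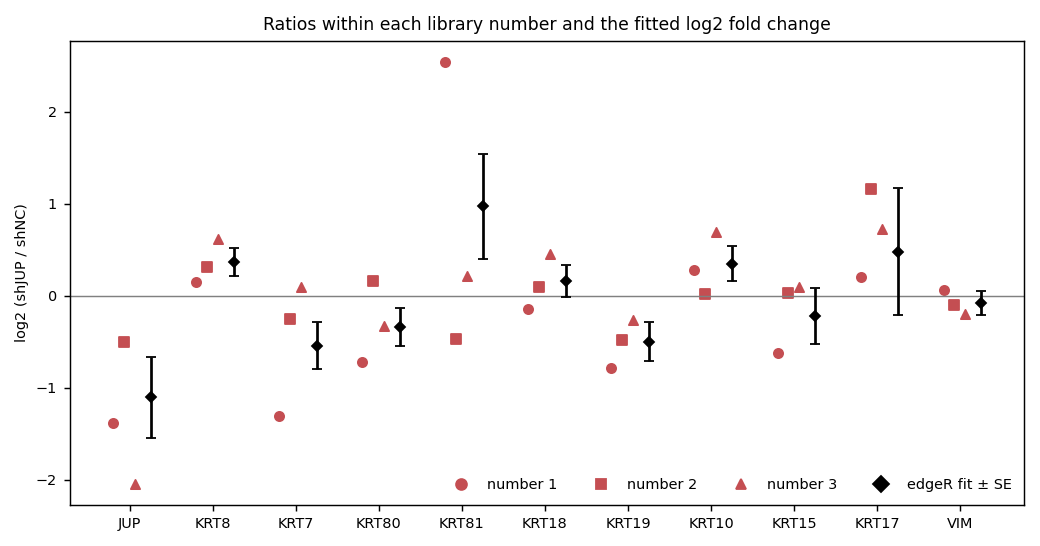
Log2 ratio of shJUP over shNC within each library number (red circle, square and triangle for numbers 1, 2 and 3) and the edgeR log2 fold change over all 6 libraries with its SE (black diamond), for JUP and the 10 filament genes. KRT8, KRT10 and KRT17 lie above 0 and JUP and KRT19 below 0 in all 3 numbers, and KRT81 ranges from -0.47 to 2.54.

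KRT7, a type II keratin of simple epithelia used in pathology to type ovarian carcinoma, stood at 94.1, 120 and 118 CPM in the shJUP libraries 1 to 3, against 231, 143 and 110 CPM in shNC 1 to 3. KRT80, a type II keratin of many epithelia, stood at 190, 192 and 170 CPM in the shJUP libraries 1 to 3, against 312, 172 and 214 CPM in shNC 1 to 3. For both genes shNC 1 was the highest library, and 1 control (shNC 3 for KRT7 and shNC 2 for KRT80) lay within the shJUP range. KRT7 averaged 111 ± 14 CPM in shJUP and 162 ± 63 CPM in shNC, and KRT80 184 ± 12 and 232 ± 72 CPM (mean ± SD, n = 3 each). The log2 fold changes were -0.54 (SE 0.26) for KRT7 and -0.34 (SE 0.21) for KRT80, with edgeR adjusted p-values of 0.54 and 0.62. Without shNC 1 they were -0.19 and -0.07.

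KRT81 and KRT17 were the most variable of the 10. KRT81, a hair-shaft type II keratin that some carcinoma lines also make, stood at 32.5, 9.12 and 8.39 CPM in the shJUP libraries 1 to 3, against 5.58, 12.6 and 7.24 CPM in shNC 1 to 3. The library shJUP 1 lay above all others, and the remaining shJUP libraries lay within the shNC range. The log2 fold change was 0.97 (SE 0.57, edgeR adjusted p = 0.60), and 0.05 without shJUP 1. KRT17, a type I keratin of basal cells that is induced in stressed epithelium, stood at 28.8, 12.6 and 8.76 CPM in the shJUP libraries 1 to 3, against 25.1, 5.63 and 5.28 CPM in shNC 1 to 3. In each group the number-1 library was the highest, and within each number shJUP was higher, at ratios of 1.15 (95% counting interval 1.01 to 1.3), 2.24 (1.77 to 2.84) and 1.66 (1.28 to 2.16). Its log2 fold change was 0.48 (SE 0.69, edgeR adjusted p = 0.84) without a block and 0.67 (SE 0.20, edgeR adjusted p = 0.18) with the library number as a block. It was 1.62 without shNC 1 and -0.17 without shJUP 1. The within-group SD of log2 CPM was 0.88 for KRT81 and 1.09 for KRT17, larger than in 98.2% and 99.1% of the 11370 genes with a mean of at least 5 CPM, where the median was 0.19.

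KRT10, the type I keratin of suprabasal epidermis, stood at 27.4, 27.8 and 41.4 CPM in the shJUP libraries 1 to 3, against 22.6, 27.5 and 25.7 CPM in shNC 1 to 3. The groups touched at 27.4 CPM in shJUP 1 and 27.5 CPM in shNC 2, and shJUP 3 was again the highest library. The log2 fold change was 0.35 (SE 0.19, edgeR adjusted p = 0.58), and 0.13 without shJUP 3. KRT10-AS1, an antisense RNA of the same locus, was at 17.4, 18.2 and 22.4 CPM in the shJUP libraries 1 to 3, against 15, 16.3 and 14 CPM in shNC 1 to 3 (log2 0.35, SE 0.15, edgeR adjusted p = 0.49). KRT15, a type I keratin of basal cells, was at 3.73 to 4.46 CPM in shJUP and 3.67 to 6.85 CPM in shNC, with 69 to 124 counts per library. Its log2 fold change of -0.22 (SE 0.30, edgeR adjusted p = 0.82) turned to 0.12 without shNC 1.

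VIM stood at 3575, 2900 and 3282 CPM in the shJUP libraries 1 to 3, against 3425, 3105 and 3764 CPM in shNC 1 to 3. The groups overlapped through most of their range, and number 2 was the lowest library in both. The means of 3252 ± 340 and 3431 ± 330 CPM (mean ± SD, n = 3 each) gave a log2 fold change of -0.08 (SE 0.13, edgeR adjusted p = 0.86). The lowest and highest library differed 1.3-fold, the smallest ratio among the 10 genes.

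The summed keratin level overlapped between the groups. The shares of KRT8, KRT80 and KRT10 within their type did not, although the CPM of KRT80 and of KRT10 did overlap. The 9 keratins together came to 681, 726 and 866 CPM per kb in shJUP 1 to 3 and to 804, 705 and 672 CPM per kb in shNC 1 to 3. The ratio of VIM to this sum was 2.33 ± 0.42 in shJUP and 2.55 ± 0.39 in shNC (mean ± SD, n = 3 each), with overlap. Type II keratins exceeded type I keratins in every library, at ratios of 1.98, 1.61 and 1.84 in shJUP 1 to 3 and 1.78, 1.28 and 1.58 in shNC 1 to 3.

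KRT8 supplied 73.6%, 72.5% and 79.4% of type II keratin RNA per length in shJUP 1 to 3, against 58.1%, 66.5% and 70.4% in shNC 1 to 3. Every shJUP library thus exceeded every control in this share. KRT80 supplied 10.9%, 11.1% and 7.86% in shJUP and 15.7%, 11.3% and 13.4% in shNC, lower in each shJUP library. Among type I keratins KRT19 supplied 33.7% ± 6.5 in shJUP and 44.7% ± 6.0 in shNC (mean ± SD, n = 3 each), with overlap, and KRT18 56.0% ± 6.4 and 48.1% ± 5.7, also with overlap. KRT10 supplied 5.66%, 4.72% and 6.4% in shJUP 1 to 3 and 3.68%, 4.19% and 4.65% in shNC 1 to 3. These shares describe the libraries and carry no test, and each depends on the transcript taken for the length. Shares within a type are parts of the same whole, so a higher share of KRT8 lowers those of the other type II keratins. By CPM, 17.0% of all tested genes did not overlap between the groups in either direction, and of the 10 only KRT8.

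**Figure D4:**
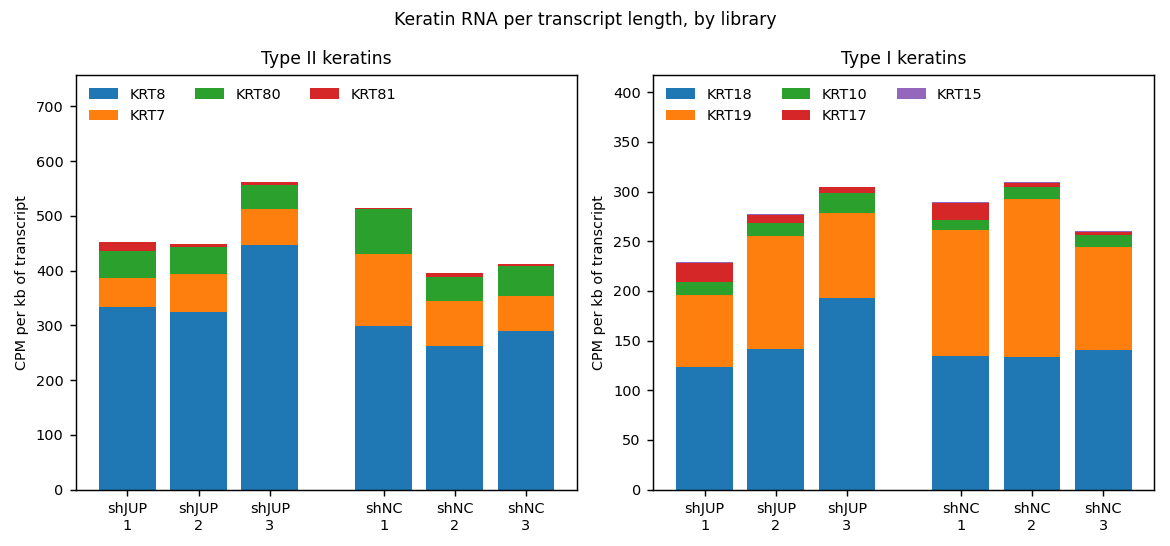
Stacked CPM per kb of the principal transcript for type II keratins (left panel) and type I keratins (right panel), with the 3 shJUP libraries left of the 3 shNC libraries in each panel (linear axes from 0). KRT8 makes up 72.5% to 79.4% of the type II bar in shJUP and 58.1% to 70.4% in shNC.

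KRT81 shares much of its sequence with another expressed keratin. Of the 100-base windows of the KRT81 transcript, 30.3% occur without a mismatch in a transcript of another gene, nearly all of them in KRT86, a neighbouring hair keratin, and the coding sequences of KRT81 and KRT86 are 94.2% identical with a longest identical run of 605 bases. The stretch of 60 bases with the most differences is shown because reads over such a stretch can tell KRT81 from KRT86. It covers coding bases 1249 to 1308 in both genes (GENCODE release 29, 5′ to 3′ on the coding strand; chromosome 12, minus strand for KRT81 and plus strand for KRT86), and capitals mark the 14 bases that differ.
KRT81: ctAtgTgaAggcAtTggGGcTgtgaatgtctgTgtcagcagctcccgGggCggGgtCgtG
KRT86: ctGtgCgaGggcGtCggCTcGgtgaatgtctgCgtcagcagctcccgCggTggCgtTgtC
KRT86 was at 0.67, 1.97 and 0.956 CPM in the shJUP libraries 1 to 3, against 2.6, 3.72 and 1.63 CPM in shNC 1 to 3 (log2 -1.14, SE 0.49, edgeR adjusted p = 0.50), so KRT81 and KRT86 had fold changes of opposite sign. KRT81, KRT83 and KRT86 summed to 33.1, 11.1 and 9.34 CPM in shJUP 1 to 3 and to 8.34, 16.6 and 8.86 CPM in shNC 1 to 3. The library shJUP 1 was the highest in that sum too. With the counts of all such copies added, the log2 fold change of KRT81 was 0.66 (SE 0.51).

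Other members share sequence to differing degrees. The annotated pseudogenes of KRT8 held 0.463% to 0.846% of the KRT8 counts, and those of KRT18 0.265% to 0.68% of the KRT18 counts. Of the windows of KRT8 6.73% were shared, with its own pseudogenes, and of those of KRT18 16.6%, with transcripts annotated to KRT8, whose gene lies on the opposite strand and held 9306 to 15804 counts per library. For VIM 33.7% were shared, mainly with VIM-AS1, which stood at 1.86 to 2.99 CPM in shJUP and 2.39 to 2.99 CPM in shNC, and for KRT7 7.67%, with KRT7-AS. The sources used here do not state how strand was used in counting, and reads from such windows on opposite strands cannot then be told apart. For KRT19, KRT80, KRT10 and KRT15 no window was shared.

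Profiles over the 6 libraries were compared by the root mean square difference of log2 CPM after centring each gene, among the 11370 genes of at least 5 CPM. KRT18 and KRT10 were the members nearest to KRT8, each at 0.15, at ranks 744 and 667 of 11369 genes by distance from it. The genes outside the list nearest to KRT8 were PABPC4, a cytoplasmic poly(A)-binding protein, LACTB2 and SSNA1, at 0.03 to 0.04. KRT80 was the nearest member to KRT7 (0.27), at rank 74 of 11369 genes by distance from KRT7. By distance from KRT80, KRT7 was only at rank 1921. VIM was nearest to ERBIN, SMC5, a subunit of a chromosome maintenance complex, and ASNSD1, each at 0.04. Over the genes compared the median absolute log2 fold change was 0.16.

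Few other keratin genes were expressed. Of 46 further keratin symbols 6 reached 1 CPM in any library, 26 had no count at all and 5 were tested. None was called by edgeR, and 0 had an unadjusted edgeR p under 0.05, where 10% of all genes did. DESeq2, with or without the block, called none of KRT14, KRT5 and KRT86 and gave KRT16 and KRT9 no adjusted p. KRT14, the basal partner of KRT5 in stratified epithelium and 85.2% identical to KRT17 in coding sequence, stood at 32.1, 10.4 and 18.8 CPM in the shJUP libraries 1 to 3, against 17.2, 15.9 and 8.54 CPM in shNC 1 to 3 (log2 0.56, SE 0.43). KRT5 was at 7.59, 2.99 and 4.83 CPM in the shJUP libraries 1 to 3, against 9.89, 7.65 and 4.79 CPM in shNC 1 to 3 (log2 -0.54, SE 0.40). Both overlapped between groups. The 10 markers of stratified epithelium summed to 22.2 to 46.7 CPM in shJUP and 17.8 to 33.1 CPM in shNC, with KRT1 at most at 0.0531 CPM and SPRR1B at 0, and their part in the KRT17 values was not tested. Of 13 further symbols, each KRT with a number and a final P, 1 reached 1 CPM.

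Of 16 filament genes outside the keratins and VIM 8 were tested, 3 above 0 and 5 below, with a median log2 fold change of -0.06. Neither tool called any, and DESeq2 gave PRPH no adjusted p. The lamins LMNA (410 ± 8.0 CPM in shJUP and 369 ± 66 CPM in shNC) and LMNB2 (380 ± 23 and 343 ± 37 CPM), which line the nuclear envelope, were the most abundant (mean ± SD, n = 3 each). SYNM, the large filament protein synemin, which copolymerises with vimentin, was at 54.8, 47.2 and 44.9 CPM in the shJUP libraries 1 to 3, against 67.6, 64.1 and 60.4 CPM in shNC 1 to 3. The groups did not overlap. Its log2 fold change was -0.39 (SE 0.12). The adjusted p was 0.41 in edgeR and 0.077 in the blocked DESeq2 fit.

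Genes that anchor or act on filaments were read from 2 further lists. Of 23 anchors (plakins, desmosome and hemidesmosome genes) 16 were tested, 6 above 0 and 10 below, with a median of -0.04. EdgeR and DESeq2 called none, and DESeq2 with the block called 1 lower, PPL, where it called 2.81% of all genes lower. PPL encodes periplakin, a plakin that binds keratins and vimentin, and was at 5.24, 12.4 and 4.19 CPM in the shJUP libraries 1 to 3, against 10.2, 22.5 and 8.76 CPM in shNC 1 to 3 (log2 -0.92, SE 0.51; edgeR adjusted p = 0.58, blocked DESeq2 adjusted p = 0.0053). The ranges overlapped, and number 2 was the highest in both groups. DSC2, the desmosomal cadherin desmocollin-2, was at 32.1, 37.1 and 25.9 CPM in the shJUP libraries 1 to 3, against 39.4, 46.9 and 37.9 CPM in shNC 1 to 3, without overlap (log2 -0.39, SE 0.16, edgeR adjusted p = 0.49). DSP, the desmoplakin gene, was at 409, 410 and 406 CPM in shJUP 1 to 3, against 480, 430 and 457 CPM in shNC 1 to 3, also without overlap (log2 -0.16, SE 0.09, edgeR adjusted p = 0.61). These were the 2 of 16 tested anchors lower without overlap, where 8.65% of all genes were. Higher without overlap were 0 anchors, where 8.39% of all genes were. The most abundant anchors were the plakins MACF1 (log2 -0.14, SE 0.12) and PLEC (log2 0.05, SE 0.22). Of 18 filament-binding proteins and kinases all were tested, 12 above 0 and 6 below, with a median of 0.07. DESeq2 with the block called 1 of them higher, the kinase AKT1, at 175, 185 and 179 CPM in the shJUP libraries 1 to 3, against 122, 160 and 136 CPM in shNC 1 to 3 (log2 0.37, SE 0.12; edgeR adjusted p = 0.43, blocked DESeq2 adjusted p = 0.044). That blocked fit called 2.23% of all genes higher. The most abundant of the list were the kinases CSNK1A1 (log2 0.00, SE 0.09) and PAK2 (log2 -0.03, SE 0.11).

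**Figure D5:**
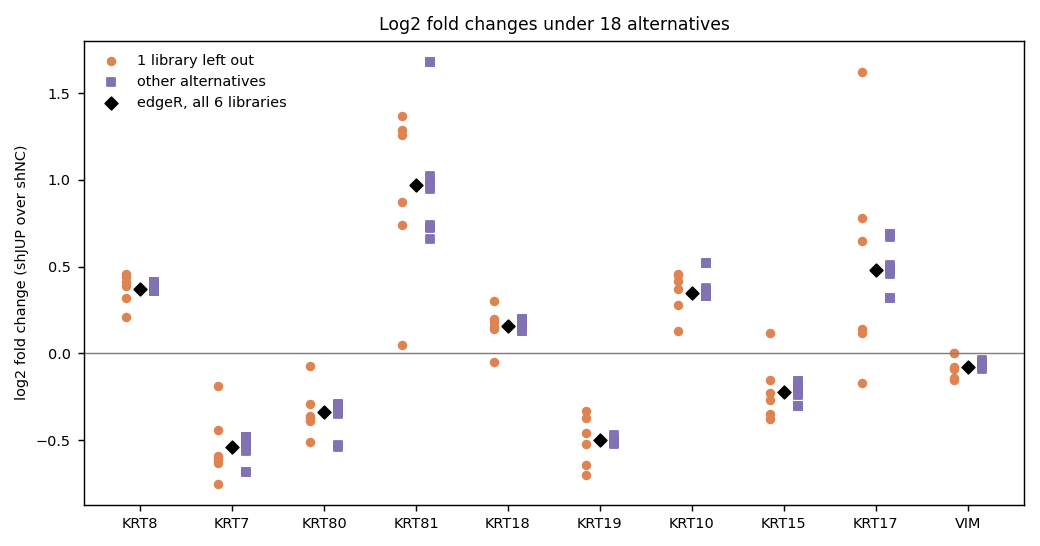
Log2 fold change of shJUP over shNC for each of the 10 genes from the edgeR fit over all 6 libraries (black diamond), with 1 library left out in turn (orange circles) and under the other alternatives (purple squares). KRT8 stays between 0.21 and 0.46 and KRT19 between -0.70 and -0.33, whereas KRT17 spans -0.17 to 1.62 and KRT81 0.05 to 1.68.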

How the data were processed

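RNA of 6 SKOV3 cultures was sequenced after oligo(dT) enrichment on a DNBSEQ instrument, per the labels' protocols. The deposited table holds expected counts (estimated read counts per Ensembl gene, not scaled). Named without roles, per the submitters' processing notes, are STAR 2.7.9a, RSEM 1.3.3, edgeR 3.32.1 and DESeq2 1.26.0. The labels' protocols also speak of FPKM from Cuffdiff, which this table does not hold. The sources used here do not state the genome build or annotation release. The table had 60695 rows. Of these, 31 held no gene ID and were left out, and 60463 of the 60664 IDs matched a symbol. No column was left unused (0). Library totals were 17456121 to 19279514.

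Counts were rounded and fitted in edgeR 4.0.16 (R 4.3.3) after filterByExpr (15867 genes left) and TMM scaling, with factors of 0.978 to 1.028, by the two-sided quasi-likelihood test with Benjamini-Hochberg adjustment over all tested genes (threshold 0.05). The SE was taken as |log2 fold change| / √F. Alternatives were other scalings, no filter, a stricter filter (1 CPM in 3 libraries), DESeq2 1.42.0, limma-voom (limma 3.58.1), the library number as a block, leaving out libraries and adding near-identical copies. Same-numbered libraries deviated together from their group means (r = 0.14, 0.51 and 0.2 for numbers 1, 2 and 3), each above the limit of 0.1, so blocked values are given beside results they change, while the main test has no block. Some libraries correlated more with another number: shJUP 3 with shNC 1 (0.39) and shJUP 1 with shNC 3 (0.15). No replicate pair matched within counting error: chi-square per gene was 10.1 to 61.0. Steps were also run on simulated counts, and the outcome of that run is not reported here. Counting intervals (95%, exact binomial) cover counting error only.

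The 10 genes and the other lists were chosen with earlier results of these data known. Named were all 10, and from each list of filament, anchor, binding and factor genes those with an unadjusted edgeR p under 0.05 (at most 4) or a DESeq2 adjusted p under 0.05 and the 2 most abundant. Markers of cell types, and DSP among the anchors, were named after their values were seen. So were FOSL2, KLF5 and SNAI1 among the factors, and KRT9, KRT16 and PRPH among the filament genes. Transcript lengths and coding sequences are from GENCODE release 29, by the principal transcript of lowest number. RefSeq promoter windows are not used here. Coding sequence at the end of the rod is not reported here.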

Additional observations from a re-analysis of the deposited data

How the results depend on the processing

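Of the 180 log2 fold changes of the 10 filament genes under 18 alternatives, 175 kept direction and side of the threshold, 2 passed it (KRT19, in the 2 DESeq2 fits given above) and 3 turned. Turned were KRT18 (-0.05 without shJUP 3), KRT15 (0.12 without shNC 1) and KRT17 (-0.17 without shJUP 1). With 1 library left out the ranges were 0.21 to 0.46 for KRT8, -0.75 to -0.19 for KRT7, -0.51 to -0.07 for KRT80, 0.05 to 1.37 for KRT81, -0.05 to 0.30 for KRT18, -0.70 to -0.33 for KRT19, 0.13 to 0.46 for KRT10, -0.38 to 0.12 for KRT15, -0.17 to 1.62 for KRT17 and -0.15 to 0.00 for VIM. Filament genes called numbered 0 in edgeR, 1 with the replicate block in DESeq2 and 1 without both number-2 libraries in DESeq2, and 0 with each library left out. Over all genes the count was 0 in edgeR, 5 with no filter on low counts, 200 with DESeq2, 1 with the replicate block in edgeR, 692 with the replicate block in DESeq2, 49 without both number-2 libraries in edgeR and 673 without them in DESeq2. The cause was not tested. The replicate block changed no other call of a filament gene. Depth limits KRT15 most, with 69 to 124 counts per library.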

Other observations

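Of 27 transcription factors known to act on keratin or vimentin genes 24 were tested, 12 above 0 and 12 below, with a median log2 fold change of 0.03. EdgeR called none. DESeq2 called 1 lower, where it called 0.679% of all genes lower and 0.782% higher. Without overlap between the groups 2 of the 24 were higher (GRHL1 and FOSL2), where 8.39% of all genes were. Lower without overlap were 3 (SP1, KLF5 and SNAI1), where 8.65% of all genes were. In the blocked DESeq2 fit 4 were called lower and 1 higher, where it called 2.81% of all genes lower and 2.23% higher. SP1, a general activator that binds GC boxes, was at 170, 166 and 169 CPM in the shJUP libraries 1 to 3, against 223, 214 and 204 CPM in shNC 1 to 3, without overlap (log2 -0.35, SE 0.09; edgeR adjusted p = 0.40, DESeq2 adjusted p = 0.042). FOSL1, an AP-1 subunit, was at 137, 85.5 and 207 CPM in the shJUP libraries 1 to 3, against 65.5, 55.5 and 90.3 CPM in shNC 1 to 3 (log2 1.02, SE 0.32; edgeR adjusted p = 0.42, blocked DESeq2 adjusted p = 1.5e-07). JUNB, another AP-1 subunit, was at 66.0, 176 and 88.9 CPM in the shJUP libraries 1 to 3, against 168, 308 and 161 CPM in shNC 1 to 3 (log2 -0.95, SE 0.40; edgeR adjusted p = 0.49, blocked DESeq2 adjusted p = 9.9e-09). FOSL1 was thus higher and JUNB lower in shJUP within each number, with ranges that overlapped across numbers. The most abundant factors were JUN (log2 0.28, SE 0.23) and ETS1 (log2 0.16, SE 0.19), both with overlap.

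EHF and ELF3, epithelial factors of the ETS family, had their highest library at number 2 in both groups. EHF was at 13.7, 76.7 and 13.4 CPM in the shJUP libraries 1 to 3, against 37.6, 125 and 31.9 CPM in shNC 1 to 3, and DESeq2 with the block gave an adjusted p of 1.2e-06, against 0.72 by edgeR without it. ELF3 was at 13.2, 67.8 and 14.8 CPM in the shJUP libraries 1 to 3, against 27.1, 101 and 35.9 CPM in shNC 1 to 3 (adjusted p = 6.2e-05 by DESeq2 with the block and 0.73 by edgeR without it). GRHL1, a grainyhead-like factor of epithelia, was at 3.12, 2.61 and 2.81 CPM in the shJUP libraries 1 to 3, against 1.38, 1.75 and 0.871 CPM in shNC 1 to 3, without overlap (log2 1.09, SE 0.32, edgeR adjusted p = 0.41).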
